A study of Mus musculus with 18 samples.

Results

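The 9 libraries from adult Pcm1-/- mice were compared with each other by brain region. They were the libraries labelled PCM1 KO, 9 of the 18 in the series, with 3 from frontal cortex, 3 from striatum and 3 from hippocampus. The other 9 were from wild-type (WT) littermates in the same regions and served as the comparison. All samples were bulk poly(A) RNA from adult mice of strain C57 Bl6J, and no group received an agent. The Pcm1-/- allele was a gene-trap insertion made in embryonic stem cells of 129 origin and crossed to C57BL/6J, and it was constitutive, so no cell type was singled out. The same 3 Pcm1-/- animals gave all 3 regions, so values below are listed in the order animal 1, 2, 3 and a region effect was measured in 3 animals, not in 9. Expression is given in CPM, the counts of a gene per 1000000 counts on genes of its library, after TMM scaling over the 18 libraries. Differences are log2 ratios ± SE from a quasi-likelihood fit in edgeR to the 9 Pcm1-/- libraries, n = 3 per region, with p-values adjusted by the Benjamini-Hochberg method over the 17545 genes tested. CPM is not corrected for gene length, so levels are compared between regions and not between genes.

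Each forebrain region is built from its own neuron classes. The striatum consists mostly of GABAergic spiny projection neurons, which carry D1 or D2 dopamine receptors, while excitatory glutamatergic neurons make up most of the frontal cortex, in layers, and of the hippocampus, in the dentate gyrus and the CA fields. These identities are set in development by transcription factors such as Tbr1 in cortex, Isl1 and Six3 in striatum and Prox1 in the dentate gyrus, and many stay expressed in the adult. PCM1 is a scaffold of centriolar satellites, granules around the centrosome that deliver proteins to the centrosome and the primary cilium, the antenna through which neurons read signals such as dopamine, somatostatin and Hedgehog ligands.

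Pcm1 itself was low in every Pcm1-/- library. It was at 12.2, 12.2 and 12.2 CPM in frontal cortex, 17.6, 16.5 and 16.0 CPM in striatum and 11.8, 13.1 and 12.9 CPM in hippocampus. The means were 9.10%, 10.2% and 8.89% of the WT means in these regions. Part of the transcript was therefore still counted, and it was higher in striatum than in the other regions by 0.44 ± 0.06 (adjusted p = 0.000162, edgeR).

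The Pcm1-/- libraries held 24950537 to 33405081 counts on genes. Pearson correlations of log2 CPM were 0.982 to 0.994 for the 9 pairs of libraries of one region and 0.937 to 0.968 for the 27 pairs from different regions. Principal component 1 held 53.4% of the variance and component 2 held 29.4%. Hippocampus of animal 2 stood apart from the other hippocampal libraries. Its component 2 score was -41.2 against -66.2 and -64.7, and its summed level of 10 choroid plexus genes was 231.6 CPM against 2434 and 4297 CPM. The cortical factor Fezf2 was at 54.2 CPM in it against 24.5 and 23.2 CPM. Of the 451 genes enriched in WT frontal cortex, 49.9% were highest in it among the hippocampal libraries. The shares were 24.4% for hippocampus of animal 1 and 23.5% for animal 3. Unequal shares also occurred elsewhere, as 46.0% of the genes enriched in WT striatum were highest in animal 1 among the striatal libraries. The share over all genes is not given here. Hippocampus of animal 3 had the highest summed level of 9 thalamic and habenular genes, at 234.3 CPM against 96.4 and 95.9 CPM, and striatum of animal 2 had the highest summed level of 10 oligodendrocyte genes, at 9551 CPM against 5891 and 6894 CPM. What these differences in dissection or makeup contribute to single genes was not tested, and counts are given below also without hippocampus of animal 2.

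**Figure D1:**
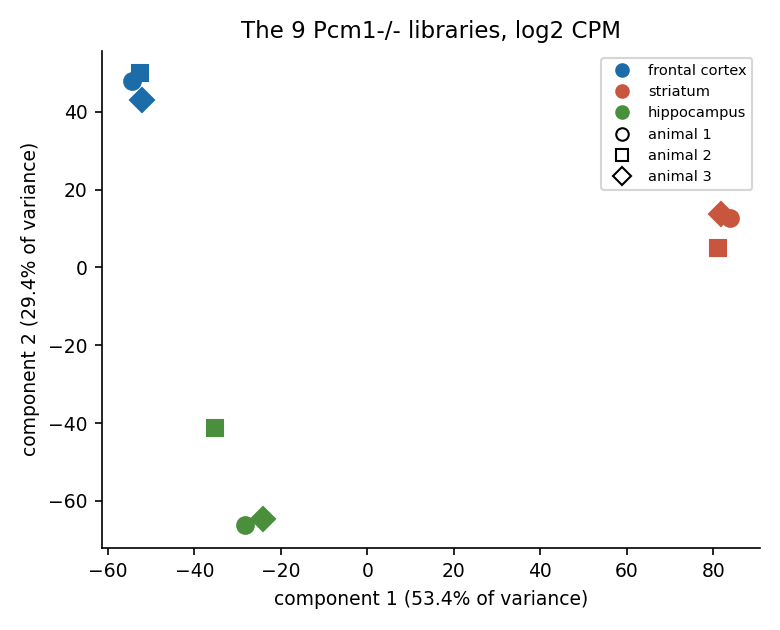
Principal components 1 and 2 of log2 CPM in the 9 Pcm1-/- libraries, with the share of variance on each axis, colour for region and marker shape for animal. The 3 regions form separate groups, and hippocampus of animal 2 lies at -41.2 on component 2 while the other hippocampal libraries lie at -66.2 and -64.7.

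The regions of the Pcm1-/- brain differed in most expressed genes. The joint test of region called 11220 genes, 63.9% of those tested. Striatum against frontal cortex called 4771 genes higher (27.2%) and 4753 lower (27.1%) in striatum. Hippocampus against frontal cortex called 3548 higher (20.2%) and 3725 lower (21.2%) in hippocampus, and striatum against hippocampus called 3838 higher (21.9%) and 4058 lower (23.1%) in striatum. The striatum was thus the region with the most differences to either neighbour, and 3280 genes differed at least 2-fold between striatum and frontal cortex against 2209 between hippocampus and frontal cortex. Because most genes were called, a call in the joint test says little of a gene, and region enrichment was therefore defined as a joint call with a called difference of at least 2-fold over each of the other regions. By this rule 553 genes were enriched in frontal cortex (3.15%), 733 in striatum (4.18%) and 475 in hippocampus (2.71%). For 548, 726 and 405 of them the 3 libraries of the own region lay above all 6 others. The genes were chosen in these same libraries, so this describes the choice and adds no support to it. Without hippocampus of animal 2 the counts of enriched genes were 560, 719 and 574. These are bulk samples, so more cells of a type and more RNA per cell cannot be told apart.

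The genes of spiny projection neurons were highest in the striatum of Pcm1-/- mice. Of 41 listed genes 40 were analysed here. All 40 were called in the joint test, where 63.9% of all genes were, and all 40 were highest in striatum. Of the 40, 38 were enriched there, against 4.18% of all genes. Their median difference over the other regions was 4.68 against 0.01 over all genes tested. The same 40 were highest in striatum in WT. The D1 dopamine receptor gene Drd1 was at 607, 547 and 568 CPM in striatum, 17.9, 19.5 and 18.4 CPM in frontal cortex and 12.5, 11.3 and 9.61 CPM in hippocampus, a difference of 5.33 ± 0.08 (adjusted p = 9.15e-12, edgeR). Drd2, which marks the indirect-pathway neurons, was at 302, 299 and 304 CPM in striatum and between 1.09 and 3.69 CPM in the 6 other libraries (7.10 ± 0.15, adjusted p = 1.03e-10). Both receptors were thus more than 10 times as high in each striatal library as in any other, with little spread between animals. Drd3 had no count in frontal cortex, where 3 counts per library would be 0.105 CPM, and was at 2.54, 1.85 and 2.28 CPM in striatum, which is at least 21.1-fold higher. The adenosine receptor gene Adora2a, the partner of Drd2 in indirect-pathway neurons, was at 489, 457 and 479 CPM in striatum and at most 3.52 CPM elsewhere (7.84 ± 0.17, adjusted p = 1.27e-10).

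Signalling genes downstream of these receptors followed the same order. All 12 of the list were enriched in striatum. Rgs9, which speeds the shut-off of G proteins behind dopamine receptors, was at 507, 513 and 494 CPM in striatum, 7.56, 8.71 and 7.59 CPM in frontal cortex and 7.83, 9.10 and 7.18 CPM in hippocampus (5.99 ± 0.07, adjusted p = 3.99e-12). Ppp1r1b, which encodes the dopamine-regulated phosphatase inhibitor DARPP-32, rose by 4.97 ± 0.09, and Pde10a, the phosphodiesterase of spiny neurons, by 4.69 ± 0.06. The scaffold and ubiquitin ligase gene Sh3rf2 was at 115, 97.4 and 121 CPM in striatum and 0.502 to 1.11 CPM elsewhere. All 3 peptide genes were enriched as well. Penk, which encodes enkephalin in indirect-pathway neurons, was higher by 4.81 ± 0.14, Tac1, which encodes substance P in direct-pathway neurons, by 4.99 ± 0.10, and Pdyn, the dynorphin gene, by 3.13 ± 0.11.

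Of the 11 striatal transcription factors, 9 were enriched. Six3, needed for the birth of D2 neurons, was at 96.3, 102.5 and 98.3 CPM in striatum, 0.125 to 0.525 CPM in frontal cortex and 2.30, 0.755 and 5.39 CPM in hippocampus. Isl1, a factor of direct-pathway and cholinergic neurons, was at 18.5, 19.9 and 17.8 CPM in striatum and at most 0.269 CPM in hippocampus (6.58 ± 0.23 over hippocampus, adjusted p = 3.34e-09). It had 1 count in the frontal cortex libraries together, so no fold is given against them. The retinoic acid receptor gene Rarb rose by 4.31 ± 0.05. Ikzf1 and Mn1 were the 2 members short of the 2-fold rule. Ikzf1 was at 10.9, 11.04 and 10.6 CPM in striatum and 4.94 to 7.93 CPM elsewhere, and Mn1 was at 136.9, 96.8 and 129.0 CPM in striatum against 65.6, 68.7 and 65.3 CPM in frontal cortex.

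Cholinergic interneurons, the acetylcholine source of the striatum, were seen through the 4 of their 5 listed genes that were analysed here, each enriched in striatum. Chat, the acetylcholine synthase gene, was at 28.0, 26.7 and 31.5 CPM in striatum and at most 0.278 CPM elsewhere. Lhx8, the factor that sets their fate, was at 10.04, 11.2 and 11.5 CPM in striatum and at most 0.0839 CPM elsewhere, and the choline transporter gene Slc5a7 rose by 6.37 ± 0.14. By the size of the difference, among genes with at least 3 log2 CPM in striatum and no overlap of libraries, Lhx8, Isl1, Serpina9, Chat, Gpx6 and Adora2a led the region. Their order is not read, because Lhx8, Isl1 and Chat had only 1 to 3 counts in all over the 3 libraries of another region. Serpina9, a protease inhibitor gene, was higher by 8.38 ± 0.18, and the glutathione peroxidase gene Gpx6 by 8.09 ± 0.18. Nkx2-1 and Gbx1, which mark septum and pallidum and also occur in striatal interneurons, were enriched in striatum by 5.98 ± 0.33 and 6.38 ± 0.33, while the summed level of that list was 100.3 to 114.1 CPM in striatum, 42.3 to 101.3 CPM in hippocampus and 24.7 to 30.4 CPM in frontal cortex. Their part in the striatal values was not tested.

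**Figure D2:**
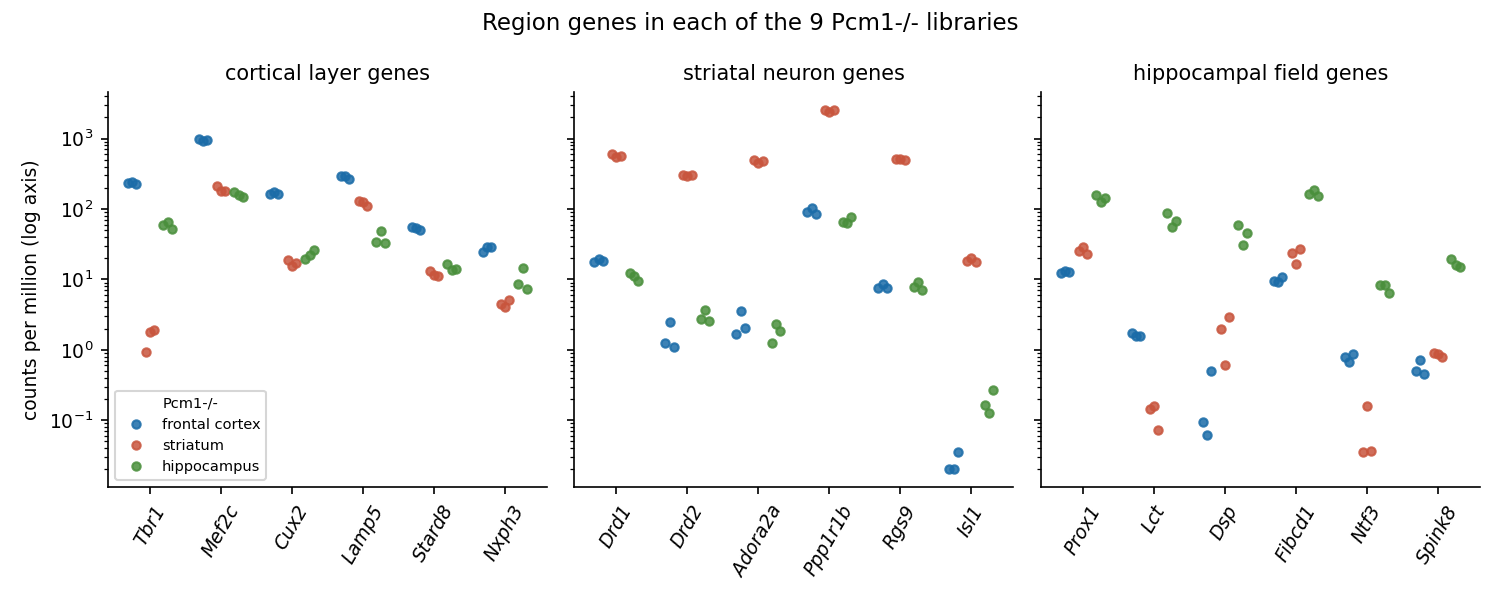
CPM on a log axis for 6 genes of each region in the 9 Pcm1-/- libraries, with colour for region and 1 point per library, and libraries at 0 drawn at 0.02. In each panel the 3 libraries of the own region lie above the other 6, as with Drd2 at 299 to 304 CPM in striatum and at most 3.69 CPM elsewhere.

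The cortical layer list was read next. All 34 listed genes of cortical layers were called in the joint test, where 63.9% of all genes were. However, 18 were highest in frontal cortex, 7 in striatum and 9 in hippocampus. The 2-fold rule in frontal cortex was passed by 12, against 3.15% of all genes. The region in which each gene was highest was that of WT for all 34. Tbr1, a factor of deep-layer and other pallial neurons, was at 233, 240 and 228 CPM in frontal cortex and 58.4, 66.2 and 51.2 CPM in hippocampus, and at 0.929, 1.78 and 1.92 CPM in striatum (4.62 ± 0.12, adjusted p = 1.81e-09, edgeR). Cux2, a factor of upper layers, was at 161, 172 and 162 CPM in frontal cortex and 15.7 to 25.9 CPM in the other libraries (3.06 ± 0.08). Tbr1 thus stepped down from cortex through hippocampus to striatum, while Cux2 was about as low in hippocampus as in striatum.

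In the upper layer group 5 of 9 genes were highest in frontal cortex, led by Lamp5, a membrane protein of upper layers and some interneurons, at 291, 290 and 263 CPM against 112 to 130 CPM in striatum and 33.0 to 48.7 CPM in hippocampus (2.04 ± 0.11), and Stard8 (2.00 ± 0.07). In the deep layer group 5 of 12 were, led by Cplx3, a complexin of subplate neurons, at 13.4, 13.8 and 14.4 CPM against 0.607, 6.11 and 1.66 CPM in striatum and 3.72, 2.77 and 2.12 CPM in hippocampus (2.28 ± 0.43, adjusted p = 0.00129), and the neurexophilin gene Nxph3 (2.03 ± 0.18). The spread of Cplx3 came mainly from striatum of animal 2. Other listed genes were highest outside cortex. In striatum these were Cux1, Tle4, Inhba, Rspo1, Syt6, Nxph4 and Crym, and in hippocampus Nr4a2, Etv1, Bcl11a, Scnn1a, Mdga1, Hs3st4, Ntng2, Npr3 and Osr1. Syt6, a synaptotagmin of layer VI, was at 227, 202 and 232 CPM in striatum against 22.3 to 24.4 CPM in frontal cortex. Cux1 was at 93.0, 103.1 and 88.8 CPM in frontal cortex and 99.4, 95.1 and 92.8 CPM in striatum, and the libraries of both regions overlapped. Fezf2, the factor of corticofugal neurons, was at 31.7, 37.0 and 36.1 CPM in frontal cortex and overlapped with hippocampus through animal 2.

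The largest differences of frontal cortex fell outside the list. Ovol2, a zinc finger repressor gene, was at 9.59, 11.8 and 9.77 CPM in frontal cortex, 0.362, 0.336 and 0.359 CPM in hippocampus and at most 0.0362 CPM in striatum. Igfn1 (6.28 ± 0.25), Dkkl1 (6.18 ± 0.16), the unnamed transcript Gm11549 (5.78 ± 0.16) and the secreted BMP family gene Bmp3 (4.91 ± 0.12) followed. Their frontal cortex libraries lay above all others, as the rule asked.

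Most markers of the hippocampal fields were highest in hippocampus. Of 33 listed genes 32 were called, where 63.9% of all genes were, and 27 of them were highest in hippocampus. Enriched there were 16, against 2.71% of all genes. The median difference of the list was 1.64 against 0.01 over all genes. For 31 of the 33 the highest region was that of WT, the other two being Plk5 and Ccn3. Prox1, the factor that fixes dentate granule cells, was at 159, 128 and 144 CPM in hippocampus, 22.7 to 28.5 CPM in striatum and 12.4 to 13.2 CPM in frontal cortex (2.98 ± 0.08, adjusted p = 1.27e-09, edgeR). Lct, a lactase gene used as a dentate marker, was at 86.4, 54.6 and 66.6 CPM in hippocampus and at most 1.72 CPM elsewhere (7.22 ± 0.17), and Dsp, the desmoplakin gene, was at 58.4, 30.9 and 45.8 CPM against 0.0618 to 2.89 CPM (6.19 ± 0.38). Both were lowest in animal 2 among the hippocampal libraries, yet far above cortex and striatum there.

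The other fields were read in the same way. In CA1, 3 of 5 genes were highest in hippocampus. Fibcd1 was at 163, 189 and 153 CPM against 9.20 to 27.0 CPM elsewhere (3.50 ± 0.12), and Spink8 rose by 4.60 ± 0.13. In CA2 all 6 were, with the neurotrophin gene Ntf3 at 8.35, 8.31 and 6.43 CPM against 0.0357 to 0.878 CPM (4.90 ± 0.22), and Sostdc1 at 17.4, 4.32 and 25.9 CPM, where animal 2 was lowest and animal 3 highest, as for the choroid plexus list. In CA3 and mossy cells all 8 were, among them Iyd at 5.46 ± 0.29. The factor Lhx9 was at 20.2, 25.8 and 22.9 CPM in hippocampus and at most 0.313 CPM elsewhere, and the Na+/H+ exchanger gene Slc9a4 rose by 7.04 ± 0.19. Listed genes highest elsewhere were Nr3c1, Trpc6 and Mpped1 in frontal cortex and Pou3f1 and Wfs1 in striatum, and Plk5 was the one not called (joint adjusted p = 0.36), at 15.4 to 24.7 CPM in hippocampus and 22.0 to 24.0 CPM in striatum.

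To show sequence upstream of a striatal, a cortical and a hippocampal gene that carry these differences, the 250 bases before the annotated start were read for Rgs9, Cplx3 and Dsp (RefSeq, GRCm38.p6), 5′ to 3′ on the strand of the gene, and matches to 6 short motifs on either strand are in capitals. The windows are chr11:109298182-109298431, minus strand, for Rgs9, chr9:57606282-57606531, minus strand, for Cplx3, and chr13:38151044-38151293, plus strand, for Dsp.
Rgs9: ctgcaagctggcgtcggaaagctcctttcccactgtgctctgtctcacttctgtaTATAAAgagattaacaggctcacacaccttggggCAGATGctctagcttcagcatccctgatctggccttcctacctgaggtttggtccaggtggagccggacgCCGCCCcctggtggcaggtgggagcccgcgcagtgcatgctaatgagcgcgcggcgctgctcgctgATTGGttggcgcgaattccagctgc
Cplx3: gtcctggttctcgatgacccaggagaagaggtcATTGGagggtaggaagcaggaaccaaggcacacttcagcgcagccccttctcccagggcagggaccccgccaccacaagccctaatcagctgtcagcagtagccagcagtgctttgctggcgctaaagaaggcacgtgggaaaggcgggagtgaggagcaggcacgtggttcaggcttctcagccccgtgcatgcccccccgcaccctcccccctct
Dsp: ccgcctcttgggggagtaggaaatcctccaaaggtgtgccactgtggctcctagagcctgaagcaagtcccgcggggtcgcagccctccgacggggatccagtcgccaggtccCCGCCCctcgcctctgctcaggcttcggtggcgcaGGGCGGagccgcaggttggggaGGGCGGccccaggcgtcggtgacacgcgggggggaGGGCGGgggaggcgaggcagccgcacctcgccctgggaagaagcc
The motifs did not overlap each other in these windows. Of the 32851 promoters of the table, 12.4% held the TATA box (TATAAA), 32.7% the GC box (GGGCGG), 14.4% an E-box (CAGATG), 4.84% a homeodomain motif (TAATTA), 1.55% the cAMP response element (TGACGTCA) and 33.8% the CCAAT box. Rgs9 held the TATA box 195 bases before the start, the E-box at 161 and, on the reverse strand, the GC box at 91 and the CCAAT box at 25. Cplx3 held the CCAAT box alone, on the reverse strand at 217, and Dsp held the GC box at 102, 80 and 45 and on the reverse strand at 137. These matches describe the letters only. A comparison of motif shares between regions was not made, because 66.7% to 75.2% of the enriched genes had a promoter in the table.

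Which of the identity genes of a normal brain held without Pcm1 was asked by choosing genes in the 9 WT libraries alone and reading them in the 9 Pcm1-/- libraries, which share no sample with them. The WT joint test called 8565 genes (48.8%), and the same 2-fold rule gave 451 genes enriched in WT frontal cortex (2.57%), 565 in striatum (3.22%) and 350 in hippocampus (1.99%). Of these, 361 in frontal cortex (80.0%), 518 in striatum (91.7%) and 274 in hippocampus (78.3%) were enriched in the same region of Pcm1-/- mice. In all, 1153 of 1366 held (84.4%), against the 2.71% to 4.18% of all genes that were enriched in a given Pcm1-/- region. For 1356 of the 1366 (99.3%) the region with the highest level was the same, and 0 were enriched in a different region by the rule. Called over both other regions whatever the size were 410, 539 and 291. With 1 Pcm1-/- library or animal left out, 312 to 369 genes held in frontal cortex (69.2% to 81.8%), 485 to 517 in striatum (85.8% to 91.5%) and 238 to 289 in hippocampus (68.0% to 82.6%). The highest values were without hippocampus of animal 2, and the lowest without animal 1 or, in striatum, animal 3.

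The median difference of the chosen genes was 2.08 in WT and 2.04 in Pcm1-/- for frontal cortex, 2.22 and 2.43 for striatum, and 2.20 and 2.30 for hippocampus. Taken gene by gene, the median of Pcm1-/- minus WT was 0.045, 0.149 and 0.093 in these regions. With genes at 0 in a region set to their bound, the Pcm1-/- medians were 2.02, 2.42 and 2.25. Across genes, which are not independent replicates, Pearson's r between genotypes was 0.883, 0.954 and 0.817. Of 6642 genes called between striatum and frontal cortex in both genotypes, all 6642 had the same direction, as did 4485 of 4488 between hippocampus and frontal cortex and 4781 of 4782 between striatum and hippocampus. Read the other way, 65.3%, 70.7% and 57.7% of the genes enriched in the Pcm1-/- regions were enriched in the WT regions, and their median differences were 2.02, 2.18 and 2.38 in Pcm1-/- and 1.77, 1.90 and 1.98 in WT. The spread between replicate libraries was lower in the Pcm1-/- set, with a biological coefficient of variation of 10.9% against 15.5% in WT, and the part of this in the unequal shares was not tested.

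**Figure D3:**
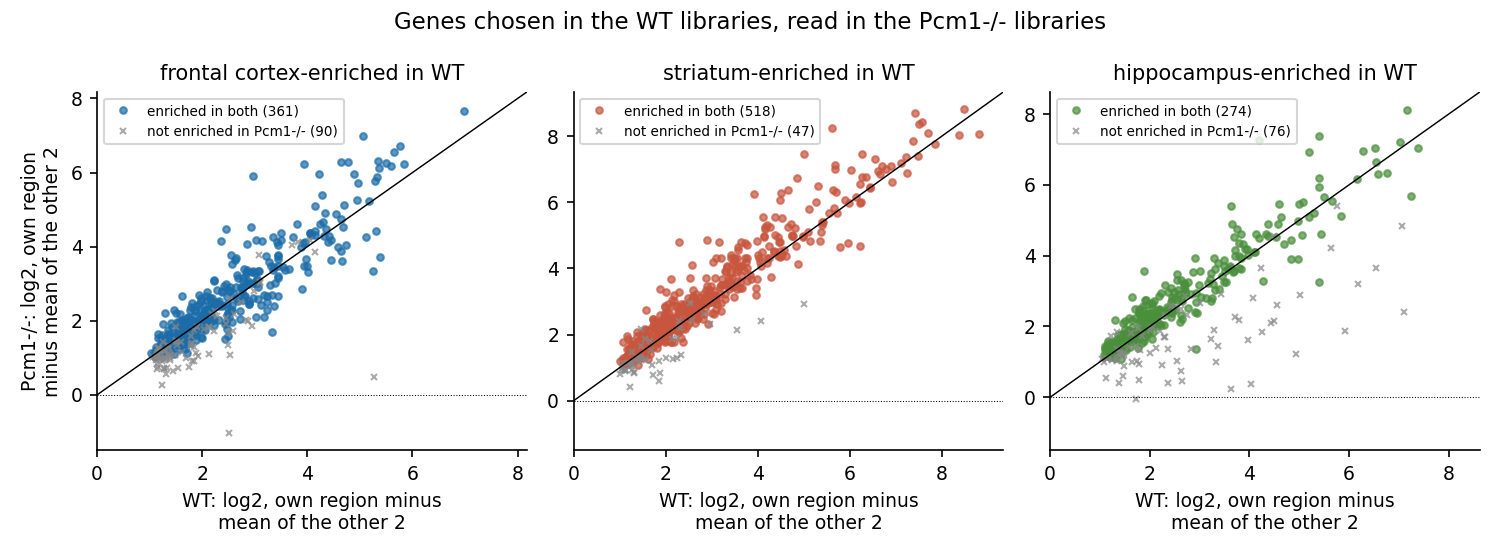
Log2 difference of the own region over the mean of the others in Pcm1-/- (vertical) against WT (horizontal) for the 451, 565 and 350 genes enriched in WT frontal cortex, striatum and hippocampus, 1 point per gene, with genes that held and did not hold in different colours. Most points follow the diagonal, with r of 0.883, 0.954 and 0.817, and those that did not hold include points far below it in hippocampus.

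Genes that did not hold in frontal cortex and striatum were mostly under 1 CPM or still called but under 2-fold, which was less so in hippocampus. In frontal cortex 49 were still called over both regions but under 2-fold in one, 39 were highest there without both calls, 26 of them under 1 CPM in WT frontal cortex, and 2 were highest elsewhere. In striatum these numbers were 21, 25 (22 under 1 CPM) and 1, and in hippocampus 17, 52 (15 under 1 CPM) and 7. The median WT level in the own region was 7.40 CPM for held and 2.25 CPM for other genes in frontal cortex, 12.5 and 0.874 CPM in striatum, and 8.70 and 2.68 CPM in hippocampus. From the cortical list, Lmo4 and Otof were enriched in frontal cortex in WT alone. Lmo4, a cofactor of LIM factors, was at 312.5, 307.1 and 298.5 CPM in Pcm1-/- frontal cortex against 169.8, 227.0 and 152.0 CPM in hippocampus, a difference of -0.75 ± 0.12 for hippocampus that missed the 2-fold rule. Otof, the otoferlin gene, was at 11.98, 10.9 and 15.3 CPM in Pcm1-/- frontal cortex and 13.4, 12.3 and 12.2 CPM in striatum, while WT frontal cortex had 26.6, 20.7 and 28.8 CPM. The genotype difference of that contrast was 1.02 ± 0.34 (adjusted p = 0.768, edgeR interaction), so it was not called.

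In frontal cortex and striatum, some of the genes that did not hold were weakly expressed. Helt, a basic helix-loop-helix factor, was at 0.280, 0.152 and 0.553 CPM in WT frontal cortex and at most 0.0313 CPM in Pcm1-/- frontal cortex, and A630023P12Rik, Gm13561 and Adam18 were at most 0.587 CPM in Pcm1-/- frontal cortex. Tmco5b, Gm12860, Fam90a1b and Dtnbos were at most 0.434 CPM in Pcm1-/- striatum. Well expressed genes also missed the rule, chosen here after their values were seen, such as the zinc transporter gene Slc30a3, at 136, 141 and 135 CPM in Pcm1-/- frontal cortex, 0.429 to 1.23 CPM in striatum and 74.6 to 83.4 CPM in hippocampus, and Coch, at 78.9, 89.0 and 86.1 CPM in striatum and 41.7 to 46.5 CPM in frontal cortex. Both were called over each other region but stayed under 2-fold against one. In hippocampus 76 genes did not hold, of which 17 were still called over both other regions but under 2-fold against one, and 18 were under 1 CPM in WT. Pou4f1, a factor of the habenula, was at 0.501, 2.17 and 21.9 CPM in WT hippocampus and 0.395, 0.126 and 0.479 CPM in Pcm1-/- hippocampus. Irx2 was at 4.31, 3.93 and 15.8 CPM in WT and 0.296, 0 and 2.75 CPM in Pcm1-/- hippocampus, and Sox14 at 1.27, 2.21 and 1.07 CPM and 0.0658, 0 and 0.778 CPM. Gbx2, a thalamic factor, was at 5.04, 1.61 and 4.97 CPM in WT and 0.164, 0.126 and 1.80 CPM in Pcm1-/- hippocampus, below its Pcm1-/- striatal level of 0.832 to 0.893 CPM in animals 1 and 2. Chrna3, a nicotinic receptor subunit of the habenula, was at 1.54, 3.30 and 22.6 CPM in WT and 1.81, 1.13 and 0.898 CPM in Pcm1-/- hippocampus, and overlapped with Pcm1-/- striatum at 1.15 to 1.68 CPM. Gm20554, Chrna6, Tfap2d, Glra1 and Chad were likewise highest elsewhere in Pcm1-/- mice, all at most 2.03 CPM in Pcm1-/- hippocampus.

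The summed level of the 9 thalamic and habenular genes was 219 to 513 CPM in WT hippocampus and 95.9 to 234 CPM in Pcm1-/- hippocampus, with the highest Pcm1-/- value in animal 3, the library in which Pou4f1, Irx2, Sox14 and Gbx2 were also highest and Chrna3 lowest of the hippocampal libraries. In WT the highest sum was in replicate 3, as for Pou4f1, Irx2 and Chrna3, while Sox14 was highest in replicate 2, where the sum was lowest, and Gbx2 in replicate 1. Of the 9 genes, 7 were called between Pcm1-/- regions, where 63.9% of all genes were, and 5 of the 7 were highest in hippocampus. Prkcd, a kinase gene of thalamic neurons, was enriched in hippocampus in both genotypes, by 2.82 ± 0.24 in Pcm1-/-. Tcf7l2, which marks thalamus, was at 6.78, 6.80 and 51.0 CPM in Pcm1-/- hippocampus and 108.2, 48.3 and 106.1 CPM in WT. The part of such tissue in the genes that did not hold was not tested.

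Choroid plexus stood on the other side. All 10 of its genes were called, where 63.9% of all genes were, and were highest in hippocampus of Pcm1-/- mice. There 9 were enriched, against 2.71% of all genes, while 0 were enriched in WT. Ttr, the transthyretin gene that defines choroid epithelium, was at 2177, 164 and 3836 CPM in Pcm1-/- hippocampus, 7.86, 125.6 and 2.93 CPM in striatum and at most 1.51 CPM in frontal cortex (8.36 ± 1.22, adjusted p = 0.000301, edgeR). The bicarbonate transporter gene Slc4a5 was at 17.7, 1.89 and 37.1 CPM in hippocampus (7.27 ± 0.93). Both were far lower in animal 2 than in animals 1 and 3. In WT the summed level was 2222 to 6472 CPM in hippocampus and also 6180 CPM in striatum of replicate 3 against 54.9 and 57.8 CPM in the other striatal libraries. When WT genes were chosen without that library, the WT hippocampal set grew from 350 to 518 genes, of which 356 (68.7%) held, while 358 of 443 (80.8%) and 515 of 561 (91.8%) held for frontal cortex and striatum.

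**Figure D4:**
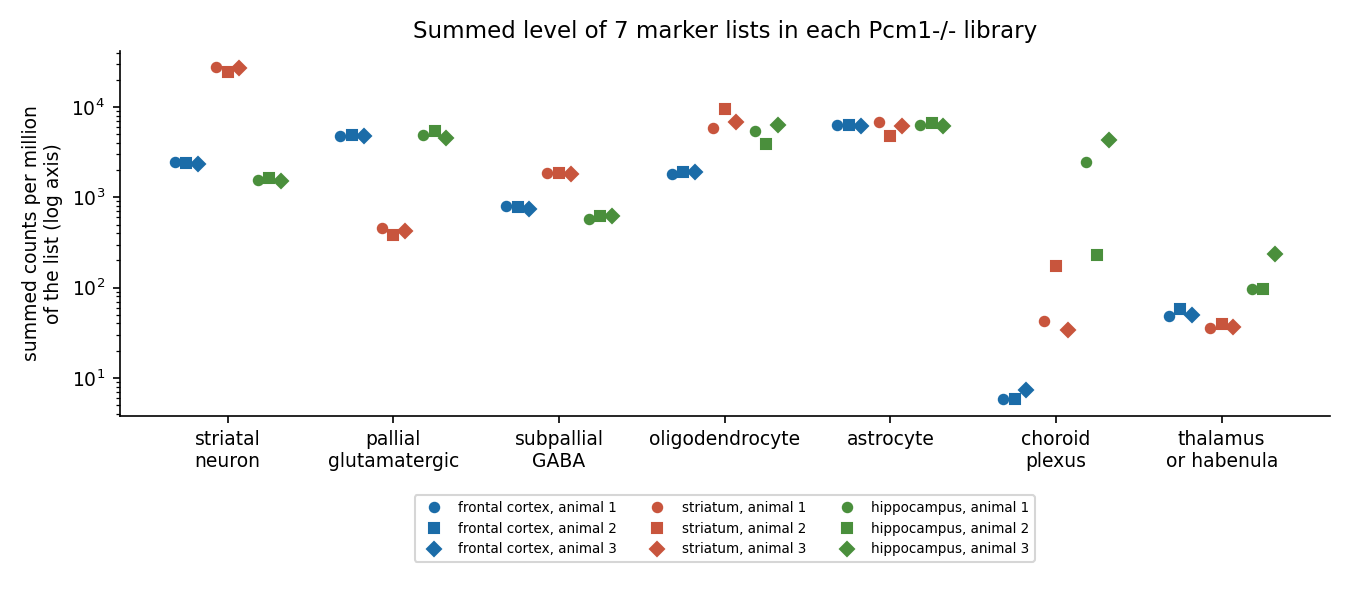
Summed CPM on a log axis of 7 marker lists in each of the 9 Pcm1-/- libraries, with colour for region and marker shape for animal. Striatal neuron genes sum to 24811 to 27606 CPM in striatum and at most 2435 CPM elsewhere, and choroid plexus genes range from 231.6 to 4297 CPM within hippocampus.

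Whether a region difference changed between genotypes was tested directly in a fit to all 18 libraries, with a region by genotype interaction. It called 2 genes (0.0114%), Grik1 and Prag1, and 972 genes had an unadjusted p under 0.05. None of the genes in the striatal, cortical or hippocampal lists was called by edgeR. By DESeq2 the interaction called 94 genes, among them Drd2 (adjusted p = 0.0066), Rasgrp2 (adjusted p = 0.00842) and Ebf1 (adjusted p = 0.017) of the 40 striatal genes and Syt6 (adjusted p = 0.01005) of the 34 cortical genes. Their own edgeR values were not called, as with Drd2 at 2.73, 3.69 and 2.60 CPM in Pcm1-/- hippocampus and 5.12, 4.01 and 4.43 CPM in WT hippocampus (joint adjusted p = 0.5), a region where it is low. Without hippocampus of animal 3, edgeR called Ebf1 (adjusted p = 0.0166). At an unadjusted p under 0.05 were 6 of 40 striatal, 7 of 34 cortical and 5 of 33 hippocampal genes for the own-region difference, while 4.61%, 5.99% and 4.82% of all genes were. A gene that was not called is not shown to have the same difference in both genotypes.

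Grik1 (chromosome 16, 87895900 to 88290265, GRCm38), which encodes a kainate-type glutamate receptor subunit, was at 2.93, 3.02 and 3.91 CPM in Pcm1-/- striatum, 8.75, 9.88 and 9.73 CPM in frontal cortex and 8.39, 10.5 and 9.96 CPM in hippocampus. In WT it was at 6.58, 8.54 and 9.42 CPM in striatum, 7.32, 8.10 and 9.18 CPM in frontal cortex and 11.1, 9.44 and 10.8 CPM in hippocampus. Striatum was the low region in Pcm1-/- mice alone, and its 3 libraries lay below all WT striatal libraries. The striatum to frontal cortex difference was -1.52 ± 0.14 in Pcm1-/- and 0.00 ± 0.16 in WT, a genotype difference of -1.52 ± 0.21 (joint adjusted p = 0.0499, edgeR).

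Prag1 (chromosome 8, 36094828 to 36147787, GRCm38), which encodes a pseudokinase, was at 70.9, 79.5 and 68.3 CPM in Pcm1-/- hippocampus, 57.9, 50.9 and 63.4 CPM in frontal cortex and 50.5, 48.4 and 38.7 CPM in striatum. In WT it was at 34.2, 34.1 and 28.9 CPM in hippocampus, 65.8, 50.2 and 64.4 CPM in frontal cortex and 33.3, 37.8 and 36.0 CPM in striatum. The hippocampus was thus the highest region in Pcm1-/-, while in WT it lay below frontal cortex and overlapped with striatum. The hippocampus to frontal cortex difference was 0.34 ± 0.11 in Pcm1-/- and -0.90 ± 0.11 in WT, a genotype difference of 1.24 ± 0.17 (joint adjusted p = 0.0499). Prag1 lies 5.09 Mb from Pcm1 on the same chromosome, and the part of DNA of 129 origin near the insertion was not tested. Both p-values sat at the threshold. With the animal number as a block the interaction called 0 genes, with adjusted p = 0.13 for both, and it also called 0 with filterByExpr, the lane covariate or DESeq2 size factors. With 1 library or animal left out it called 0 in 8 of 12 cases, Grik1 and Prag1 without striatum of animal 3, 1 gene in each of 2 cases (Sel1l3 and Foxp2), and 22 without hippocampus of animal 3, with Grik1 and Prag1 among them.

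**Figure D5:**
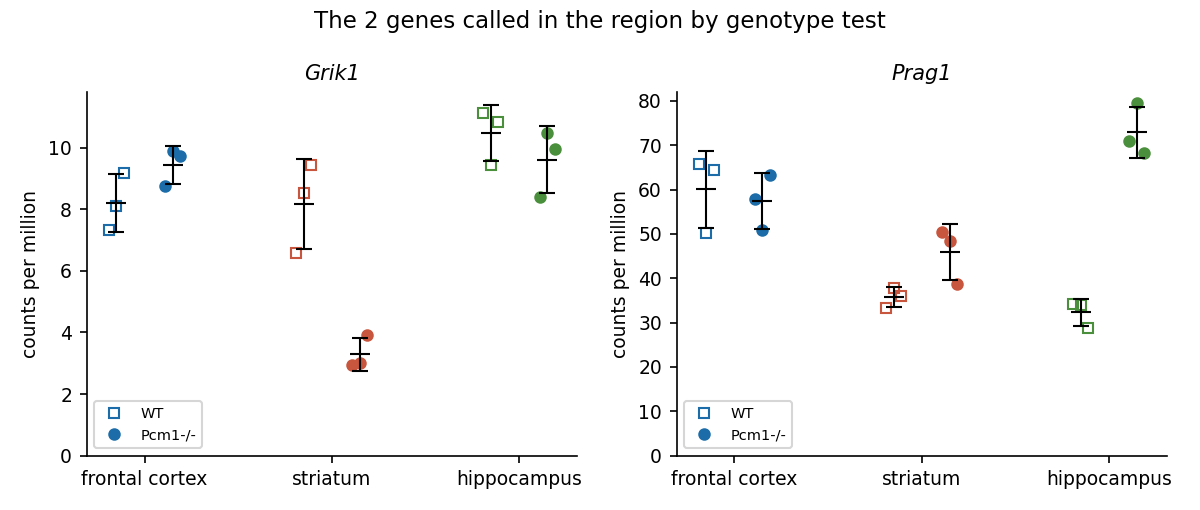
CPM of Grik1 and Prag1 in each of the 18 libraries by region and genotype, 1 point per library. Grik1 is at 2.93 to 3.91 CPM in Pcm1-/- striatum and 6.58 to 9.42 CPM in WT striatum, and Prag1 is at 68.3 to 79.5 CPM in Pcm1-/- hippocampus and 28.9 to 34.2 CPM in WT hippocampus.

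The broad split between pallial and subpallial neurons was seen in the Pcm1-/- regions. All 14 pallial glutamatergic genes were called, where 63.9% of all genes were, with 10 highest in hippocampus, 4 in frontal cortex and 0 in striatum. Bhlhe22, a factor of projection neurons, was higher in hippocampus by 4.00 ± 0.09 over the mean of frontal cortex and striatum. The neuritin gene Nrn1 was higher there by 3.51 ± 0.10 in the same measure. That mean includes striatum, where the summed level of the list was lowest, so neither value is a fold over frontal cortex. Of the 14 genes, 6 passed the 2-fold rule in the region where they were highest. The summed level was 4744 to 4904 CPM in frontal cortex, 4560 to 5437 CPM in hippocampus and 381 to 455 CPM in striatum. All 10 subpallial GABA genes were called, where 63.9% of all genes were. Of the 10, 7 were highest in striatum and 3, all transcription factors, in frontal cortex. Dlx6, a factor of the ganglionic eminences, rose in striatum by 3.38 ± 0.11, the GABA transporter gene Slc32a1 by 2.28 ± 0.06 and Gad2, a GABA synthase gene, by 1.85 ± 0.06. Among the 13 listed genes of GABA interneurons, 7 were highest in frontal cortex, 3 in striatum and 3 in hippocampus. Those of frontal cortex included Vip at 4.18 ± 0.15 and Cck, which pyramidal cells also express, at 3.22 ± 0.09.

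Receptors for amines were shared out among the regions. All 33 tested were called, where 63.9% of all genes were, 14 highest in frontal cortex, 11 in striatum and 8 in hippocampus. By the 2-fold rule 15 were enriched, while 2.71% to 4.18% of all genes were enriched in a given region. For 31 the highest region was that of WT. The dopamine receptors led striatum, apart from Drd4 in frontal cortex (1.16 ± 0.36, at most 0.587 CPM) and Drd5 in hippocampus at 18.02, 20.3 and 15.2 CPM (2.17 ± 0.14). Of the serotonin receptors, Htr1d was highest in striatum (6.02 ± 0.27), Htr5b and Htr4 in hippocampus (3.89 ± 0.26 and 2.90 ± 0.15) and Htr5a in frontal cortex (1.47 ± 0.12). The adrenergic receptor gene Adra1b was at 61.7, 65.8 and 55.9 CPM in frontal cortex and at most 7.75 CPM elsewhere (3.78 ± 0.17). Of the muscarinic receptors, Chrm3 was highest in frontal cortex (1.66 ± 0.05) and Chrm4 in striatum (1.78 ± 0.10). Chrm5 was highest in hippocampus at 1.64, 3.61 and 1.80 CPM (2.56 ± 0.49), where it overlapped with striatum at 0.668 to 1.66 CPM. None of the 33 was called in the interaction test by edgeR, while DESeq2 called Drd2 and Chrm2 (adjusted p = 0.00644). Chrm2, a muscarinic receptor gene, was at 38.9, 46.8 and 38.7 CPM in Pcm1-/- frontal cortex and 9.04, 11.6 and 19.5 CPM in hippocampus, against 19.2 to 25.5 CPM and 18.1 to 24.9 CPM in WT, and edgeR called it too without hippocampus of animal 3 (adjusted p = 0.0166). Htr2b, Hrh4 and Taar1 did not reach the count minimum and were not analysed here.

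Genes of the neuronal primary cilium, the organelle that satellites serve, were read beside the 63.9% of all genes that were called. Of 24 tested, 19 were called, 4 highest in frontal cortex, 9 in striatum and 6 in hippocampus, and for 22 of the 24 the highest region was that of WT. Sstr3, the somatostatin receptor placed on neuronal cilia, was at 44.8, 51.6 and 42.1 CPM in hippocampus, 43.6, 47.6 and 41.5 CPM in frontal cortex and 1.68, 2.29 and 1.88 CPM in striatum. The cortical and hippocampal libraries overlapped, and striatum lay far below. Mchr1, the ciliary receptor for melanin-concentrating hormone, was at 59.2, 58.5 and 56.1 CPM in striatum and 17.8 to 28.5 CPM elsewhere (1.39 ± 0.12). Npy2r and Gpr161, receptors for neuropeptide Y and in Hedgehog signalling, were enriched in hippocampus by 3.65 ± 0.10 and 2.93 ± 0.13. Adcy3, the ciliary adenylyl cyclase, was higher in striatum by 0.80 ± 0.05, and the Hedgehog factor Gli3 by 1.33 ± 0.09. Arl13b, a small GTPase of the ciliary membrane, was at 13.3, 13.2 and 11.5 CPM in striatum against 9.40 to 12.5 CPM elsewhere, and the libraries overlapped. Of the 10 receptors tested all 10 were called, and of the 14 other genes 9 were. Ift88, of the intraflagellar transport train, was at 16.8 to 19.8 CPM in all 9 libraries and was not called.

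Partners of PCM1 in centriolar satellites were read beside all genes, of which 63.9% were called. Of 22 tested, Pcm1 among them, 15 were called, 9 highest in striatum, and 2 were enriched 2-fold. Akap9, a scaffold of the centrosome and Golgi, was at 344, 203 and 311 CPM in striatum and 58.9 to 81.0 CPM elsewhere (1.98 ± 0.14), and Cep126 was at 45.1, 43.4 and 44.0 CPM against 17.6 to 19.2 CPM (1.26 ± 0.05). Disc1, a binding partner of PCM1, was at 1.58, 1.68 and 1.26 CPM in hippocampus and 0.470 to 1.11 CPM elsewhere (0.91 ± 0.24). Bbs4, Hook3, Mib1 and Pcnt, which act with PCM1 at satellites or the centrosome, differed by at most 0.16 from the other regions. None was called in the interaction test.

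The lists of glia and other cells gave the following counts. All 10 oligodendrocyte genes were called and highest in striatum, with Ermn, the ermin gene of myelinating cells, at 1.17 ± 0.14, and 0 were enriched over both regions. Of 10 astrocyte genes 7 were called. Gfap, an intermediate filament gene of astrocytes, was enriched in hippocampus by 2.04 ± 0.14, while the glutamate transporter genes Slc1a2 and Slc1a3 and the factor Sox9 were not called. Microglia had 5 of 8 genes called, all highest in striatum, with differences of at most 0.53. Endothelial and mural genes had 5 of 9 called and oligodendrocyte precursor genes 3 of 5. All 8 ependymal genes were called, 5 highest in striatum and 3 in hippocampus, and all 8 meningeal genes, 6 highest in hippocampus, where Lum rose by 2.75 ± 0.21. Olfactory bulb genes had 5 of 6 called, with Cdhr1 in striatum at 2.18 ± 0.36, and blood genes 1 of 6, the immunoglobulin gene Igkc in hippocampus. Of 15 immediate early genes, which follow recent activity, 13 were called, 7 highest in striatum, and Jun was enriched in hippocampus by 1.32 ± 0.07. The joint background of 63.9% applies to each of these counts.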

How the data were processed

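Total RNA of frontal cortex, striatum and hippocampus of adult WT and Pcm1-/- littermates, 3 libraries per region and genotype, was made into stranded poly(A) libraries by the authors and sequenced. Reads were trimmed with Trim Galore and cutadapt, aligned with STAR to GRCm38 and counted per gene with HTSeq, per the labels and the study's methods. Tool versions and the strand setting of the counting are not given in the sources used here, so an antisense partner cannot be told apart. The deposited values were raw counts for 38561 genes per library, and 86.8% to 89.2% of counted reads fell on genes. The 5 HTSeq summary lines were left out of library sizes and tests. Symbols and positions came from GENCODE M21 for 36723 genes.

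The 17545 genes that reached 10 counts in 1 or more of the 18 libraries were tested. edgeR 4.0.16 in R 4.3.3 was used with TMM scaling and the quasi-likelihood test, fitted to the 9 Pcm1-/- libraries, the 9 WT libraries and, for the interaction, all 18. A call is an adjusted p under 0.05, and enrichment asked for a call in the joint test and over each other region at log2 of at least 1. SE is the log2 difference divided by the root of F. CPM on a log scale used a prior count of 2. The script was tested on simulated data. Alternatives were DESeq2 1.42.0, its size factors in edgeR, other count filters, the sequencing lane as covariate, the animal as block, all 18 libraries in 1 fit, other fold limits and leaving out libraries.

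Named genes were the 2 largest differences per role of each identity list and members not called or highest elsewhere, the 6 largest enriched genes per region at log2 CPM of at least 3 with no overlap of libraries, the 3 largest WT genes not held per region and any highest elsewhere, interaction calls, genes the study names, and from each other list the 2 smallest joint p and up to 4 members not called. Other list members were named as further examples after their values were seen. The members and lists were chosen with earlier results of these data known. The study took all 3 regions from each animal, and the deposited names of the libraries carry an animal number, which is the same for a given replicate number in all 3 Pcm1-/- regions. The deviations of libraries of the same animal correlated at 0.110 to 0.318 in all 9 pairs, against a mean of -0.0979 over 18 pairs of different animals. In WT striatum the numbers do not follow the animals. Replicates are different animals within a region. Chi-square per degree of freedom between replicate libraries was 7.01 to 59.0, so none was a copy of another. Some genes that the naming rule would include are not reported here. Counts on genes of 24950537 to 33405081 limit precision for genes under 1 CPM, where a gene has about 30 reads or fewer.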

Additional observations from a re-analysis of the deposited data

Results flagged for a closer look

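Grik1 stood out because its difference between striatum and frontal cortex was lower in Pcm1-/- than in WT, tested as an interaction (genotype difference -1.52 ± 0.21, joint adjusted p = 0.0499, edgeR), with all 3 Pcm1-/- striatal libraries below all 3 WT striatal libraries. Prag1 stood out because its difference between hippocampus and frontal cortex was 1.24 ± 0.17 higher in Pcm1-/- than in WT (joint adjusted p = 0.0499), with all 3 Pcm1-/- hippocampal libraries above all 3 WT hippocampal libraries. Over the alternatives the values ranged from -1.66 to -1.32 for Grik1 and from 1.09 to 1.36 for Prag1. The calls were less stable than the values. The interaction called 0 genes with the animal block, the lane covariate, filterByExpr or DESeq2 size factors in edgeR. It also called 0 in 8 of 12 cases with 1 library or animal left out. The causes were not tested. Groups of 3 libraries were not screened for single outlying values.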

How the results depend on the processing

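The counts of called, enriched and held genes were within 1.5 times the reported ones under DESeq2, its size factors in edgeR, filterByExpr, no filter, 1 fit to 18 libraries, the lane covariate, the animal block and both together, except that with block and lane together 535 genes were enriched in WT hippocampus against 350, of which 344 held (64.3%). The fold limit set the size of the sets. At a log2 difference of at least 2, 172, 313 and 218 genes were enriched in Pcm1-/- frontal cortex, striatum and hippocampus and 116, 229 and 100 WT genes held, while with no fold limit 2363, 2598 and 1444 were enriched and 1449, 1519 and 701 held. The interaction called 94 genes by DESeq2. It called 0 with DESeq2 size factors in edgeR, with filterByExpr, with the lane covariate, with the animal block and with block and lane together. The animal block changed no other call of a count, and gave 11707 genes in the joint test and 373, 542 and 287 held genes. With 1 library or 1 animal left out, hippocampus against frontal cortex called 4003 to 8072 genes, with 4003 without animal 1 and 4582 without animal 3, striatum against hippocampus 5072 to 8183, with 5072 without animal 1, and the interaction 0 to 22. It called 22 without hippocampus of animal 3, 2 without striatum of animal 3, 1 without hippocampus of animal 2 or without animal 3, and 0 without any other single Pcm1-/- library, animal 1 or animal 2. WT libraries were not left out in turn. The cause of these changes was not tested, although 2 libraries per region remain when an animal is left out. Of 150 values of named genes, 2651 of 2845 alternatives kept direction and call, 118 lost the call, 48 gained it and 28 turned direction. Helt was at -0.0484 under DESeq2 and -0.0732 with the lane covariate, Chad at 0.00165 under DESeq2 and 0.0228 with the block, and Chrna3 at -0.0674 with the lane covariate. With libraries left out, Chad ranged from -0.60 to 0.60, Chrna3 from -0.10 to 0.45, Gbx2 from -0.69 to 2.49, Glra1 from -1.27 to 0.98, Gm20554 from -0.18 to 2.73, Helt from -1.59 to 1.11, P2ry12 from -0.0777 to 0.18, Rgs5 from -0.0153 to 0.147 and Tfap2d from -4.90 to 1.33. Depth limits the genes under 1 CPM, and 3 animals limit every region effect.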
